A study of Mus musculus with 11 samples.

Results

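Accessible chromatin was examined around 6 genes linked to the terminal end bud (TEB) of the pubertal mouse mammary gland: Dmrta1, Htr5b, Ccnd2, Meox1, Sema3b and Nrg1. The members are all ATAC-seq peaks that overlap the gene body or have an edge within 100 kb of an annotated transcription start site (TSS), which gave 187 of the 153396 counted peaks. Of these, 9 lay at Dmrta1, 14 at Htr5b, 15 at Ccnd2, 45 at Meox1, 48 at Sema3b and 56 at Nrg1, whose long gene body accounts for its number. The question asked at each gene was whether peaks away from the promoter move with the promoter.

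ATAC-seq reads mark DNA that a transposase can reach. The libraries came from 5-week-old C57BL/6 females carrying an E-cadherin-GFP reporter, whose TEBs and ducts were separated by micro-dissection before sorting. Lin-CD29+CD24+ cells with low Ecad-GFP made up the basal groups and those with high Ecad-GFP the luminal groups, so that both lineages share the same reporter and the gate itself reads E-cadherin. The 4 groups were basal duct (replicates 1 and 3, n = 2), basal TEB (n = 3), luminal duct (n = 3) and luminal TEB (n = 3), with 15000 to 25000 cells in each sample. The tissue came from 3 independent pools of mice, and the labels do not say which samples share a pool. A further basal duct sample, set aside by the study for low cell number, was not analysed here.

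Of the 6 genes, 2 (Dmrta1 and Htr5b) were chosen by the study on accessibility at their TSS in these same libraries. Their promoters are therefore described without a test, and their other peaks are tested only where no basal TEB library is involved. The other 4 genes (Ccnd2, Meox1, Sema3b and Nrg1) were selected on single-cell RNA of TEB basal cells, so that their accessibility can be tested. They were picked among basal cells, so higher values in basal than in luminal cells are not independent of that choice.

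A TEB is the club-shaped tip of a growing duct, with an outer basal layer of cap cells and inner luminal body cells. It drives ductal elongation during puberty and disappears when the fat pad is filled. Dmrta1 encodes a transcription factor of the doublesex-related DM-domain family and Htr5b a serotonin receptor. Ccnd2 encodes cyclin D2, a partner of the kinases that start the cell division cycle. Meox1 is a homeodomain factor known from somites. Sema3b is a secreted semaphorin that signals through neuropilins and plexins, and Nrg1 is a ligand of the ErbB receptors that basal mammary cells present to luminal cells.

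The sequences that follow are the peaks to which the description returns, read 5′ to 3′ on the plus strand of GRCm38 (mm10). For peaks wider than 300 bases the central 300 are given. Capitals mark matches on either strand to the core letters of 6 motifs. AP-1 was searched as TGANTCA and the TEAD factors were searched as GGAATG. For the RUNX factors the letters were TGTGGT, and for the FOX factors they were TGTTTAC. The GATA factors were searched as AGATAA, and the GC-box was searched as GGGCGG. Matches overlap each other only in the Sema3b window, where 2 GC-box matches share bases. The first is the RefSeq promoter of Dmrta1 (GRCm38.p6, the 250 bases before the start, chr4:89687948-89688197), the only one of the 6 genes matched in the promoter table used.
Dmrta1 promoter: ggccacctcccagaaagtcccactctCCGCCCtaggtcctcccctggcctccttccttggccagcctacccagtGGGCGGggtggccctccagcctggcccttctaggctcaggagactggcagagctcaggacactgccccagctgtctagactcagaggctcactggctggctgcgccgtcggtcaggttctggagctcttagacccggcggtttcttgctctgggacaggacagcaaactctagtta
The next pair are the peaks upstream of Dmrta1 with the most basal TEB signal, at chr4:89663459-89663644 and chr4:89663841-89663990, both outside the gene body.
Dmrta1 -24.6 kb: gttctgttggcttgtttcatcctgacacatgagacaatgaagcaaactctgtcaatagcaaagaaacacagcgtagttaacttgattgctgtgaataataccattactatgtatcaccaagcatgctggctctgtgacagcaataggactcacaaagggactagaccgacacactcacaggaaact
Dmrta1 -24.3 kb: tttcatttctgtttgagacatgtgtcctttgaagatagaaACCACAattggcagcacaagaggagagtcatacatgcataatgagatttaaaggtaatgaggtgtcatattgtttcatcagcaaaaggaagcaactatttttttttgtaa
The peak +44.8 kb from the Htr5b TSS (chr1:121483616-121483792, outside the gene body) is shown because its sequence is a tandem repeat.
Htr5b +44.8 kb: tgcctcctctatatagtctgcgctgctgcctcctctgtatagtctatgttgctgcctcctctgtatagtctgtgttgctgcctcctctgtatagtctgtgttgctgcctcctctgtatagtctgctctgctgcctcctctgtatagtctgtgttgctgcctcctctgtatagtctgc
At Ccnd2, the first peak upstream of the promoter (window chr6:127152348-127152647) and a peak that went the other way (window chr6:127200217-127200516) are shown, both outside the gene body.
Ccnd2 -1.4 kb: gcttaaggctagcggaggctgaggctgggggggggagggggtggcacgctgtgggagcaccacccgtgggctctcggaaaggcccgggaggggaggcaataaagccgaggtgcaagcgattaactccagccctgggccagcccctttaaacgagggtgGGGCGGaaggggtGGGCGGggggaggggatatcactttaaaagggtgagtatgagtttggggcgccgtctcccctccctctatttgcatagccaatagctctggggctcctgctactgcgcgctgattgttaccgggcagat
Ccnd2 -49.3 kb: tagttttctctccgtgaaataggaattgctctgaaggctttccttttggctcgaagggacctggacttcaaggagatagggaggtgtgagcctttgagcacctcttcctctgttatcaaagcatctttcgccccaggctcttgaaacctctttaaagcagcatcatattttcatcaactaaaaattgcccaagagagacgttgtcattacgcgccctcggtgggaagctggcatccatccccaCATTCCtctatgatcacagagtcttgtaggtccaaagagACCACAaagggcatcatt
The Sema3b peak -7.3 kb from the reference TSS (window chr9:107612515-107612814) was the most open one at that gene outside promoters.
Sema3b -7.3 kb: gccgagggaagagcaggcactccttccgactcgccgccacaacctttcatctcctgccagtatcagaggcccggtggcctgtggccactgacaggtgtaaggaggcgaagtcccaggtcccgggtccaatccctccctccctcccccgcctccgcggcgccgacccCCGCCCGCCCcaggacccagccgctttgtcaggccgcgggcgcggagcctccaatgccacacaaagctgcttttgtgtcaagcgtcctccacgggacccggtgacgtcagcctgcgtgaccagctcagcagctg
The last is a basal-open peak in an intron of Nrg1 (window chr8:32219093-32219392).
Nrg1 -209.8 kb: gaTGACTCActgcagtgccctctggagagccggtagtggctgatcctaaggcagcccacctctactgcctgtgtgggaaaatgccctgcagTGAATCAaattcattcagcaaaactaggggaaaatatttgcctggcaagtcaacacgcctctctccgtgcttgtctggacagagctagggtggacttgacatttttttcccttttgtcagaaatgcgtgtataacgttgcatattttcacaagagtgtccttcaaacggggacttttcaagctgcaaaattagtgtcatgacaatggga

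The GC-box letters occurred in the Dmrta1 promoter window, as in 32.7% of all RefSeq promoter windows of that length, and in the Ccnd2 -1.4 kb and Sema3b -7.3 kb windows, as in 9% of the central 300 bases of all peaks over 500 bp from a TSS and 59.2% of those within 500 bp. The Nrg1 -209.8 kb window held 2 AP-1 matches, and 28.2% of such distal windows held at least 1. The Ccnd2 -49.3 kb window held a TEAD and a RUNX match, which were present in 22.4% and 24% of distal windows. The RUNX letters in the Dmrta1 -24.3 kb peak were present in 13.3% of distal windows cut to the central 150 bases. Over all member peaks outside promoters, AP-1 letters were found in 36 of 158 windows (22.8%), of which 17 were among the 52 at Nrg1 and 0 among the 13 at Ccnd2. GATA letters were found in 28 of 158 (17.7%, against 14.1% of all distal windows) and FOX letters in 4 (2.53%, against 7.05%).

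In the Htr5b +44.8 kb peak, 118 of 125 compared bases (94.4%) equalled the base 52 positions further on. The +43.7 kb peak beside it repeated with the same period (93.9% of 179 bases) and the +43.4 kb peak with a period of 26 (90.8% of 130 bases). Only 4 of the 158 member peaks outside promoters had at least 60% of bases equal at any period from 10 to 60, and the other one was the Meox1 -23.7 kb peak (77.7% at a period of 28). Reads from copies of such a unit cannot be placed with certainty, so that their counts are uncertain.

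Counts in peaks ranged from 6816197 to 9986384 in basal duct, from 1821942 to 2489582 in basal TEB, from 4650216 to 5561051 in luminal duct and from 2960093 to 3738324 in luminal TEB libraries, so the basal TEB values carry the most counting error. Levels are CPM, counts scaled to library size with factors from the trimmed mean of M values (TMM), and differences are log2 fold changes from the test named. Summed promoter CPM of 7 basal markers (Krt5, Krt14, Krt17, Trp63, Acta2, Myh11 and Oxtr) was 223 to 247 in basal duct and 111 to 161 in basal TEB, against 27.4 to 37.4 over the 6 luminal libraries. That of 8 luminal markers (among them Krt8, Elf5 and Foxa1) was 202 to 271 in luminal libraries, 148 to 170 in basal duct and 82.8 to 98.2 in basal TEB. Of 6 fibroblast markers, 4 had a promoter peak, with summed CPM of 84.7 to 99.9 in basal duct, 42.4 to 52.4 in basal TEB and 12.5 to 19.8 in luminal libraries. The 2 endothelial markers with a peak summed to 25.2 to 28.7, 17.6 to 22.5 and 4.45 to 7.57 in the same order, and the other cell type lists were at or below 44.6 in every library. The part of these cells in the values below was not tested. Peaks made mostly of soft-masked (repeat) sequence took 2.4% and 2.45% of counts in basal duct but 16.2%, 7.03% and 9.75% in basal TEB replicates 1, 2 and 3, and 4.46% to 7.21% in luminal libraries. Across all promoters the median log2 fold change of basal TEB against basal duct was -0.65, and that of peaks over 500 bp from a TSS was 0.15.

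**Figure D1:**
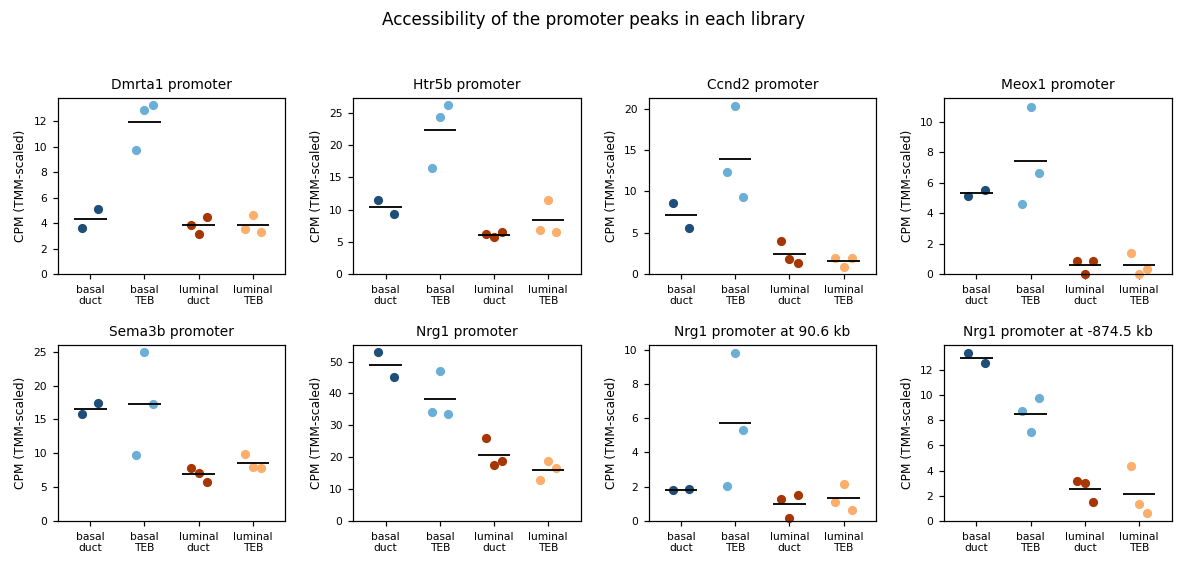
TMM-scaled CPM (vertical axis, linear from 0) of the promoter peaks of the 6 genes in each of the 11 libraries, by group. Points are libraries and bars are group means. At Dmrta1 and Htr5b the 3 basal TEB points lie above the 8 others, at Ccnd2, Meox1 and Sema3b both basal means lie above the luminal ones, and the strongest Nrg1 promoter has its highest mean in basal duct.

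Dmrta1, on chromosome 4, had 1 promoter peak (chr4:89687911-89688732, over the first exon and its 5′ UTR). Its level was 3.65 and 5.08 CPM in basal duct, 9.71, 12.9 and 13.3 in basal TEB, 3.82, 3.17 and 4.51 in luminal duct, and 3.57, 4.64 and 3.29 in luminal TEB. The basal TEB libraries lay above the 8 others, which overlapped among themselves. The log2 fold change of basal TEB against basal duct was 1.47 ± 0.26 (SE between samples, 2.78-fold). That of basal duct against luminal duct was 0.11 ± 0.25 and that of luminal TEB against luminal duct 0.02 ± 0.19.

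The 8 peaks of Dmrta1 outside its promoter, which all have its TSS as their nearest, had log2 fold changes of basal TEB against basal duct above 0 in 8 of 8, with a median of 2.31 and a smallest value of 1.33. The gene was chosen on accessibility at its TSS in the same libraries. The shared sign is therefore given as a description, and its cause was not tested. In that comparison the median over all peaks was 0.02. It was -0.41 over the 66983 peaks that passed a count filter, so that weakly counted peaks lay higher as a class. The -24.6 kb peak, shown above, was at 0.456 and 1.08 CPM in basal duct, 1.53, 8.61 and 8.86 in basal TEB, 0.636, 1.31 and 2.79 in luminal duct and 1.65, 0.546 and 1.98 in luminal TEB. Basal TEB replicates 2 and 3 stood above all others, while replicate 1 lay within the luminal range. The -24.3 kb peak was at 4.46 ± 2.31 CPM over basal TEB (SD, n = 3) and had 0 and 1 reads in the 2 basal duct libraries.

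Other Dmrta1 peaks were open in luminal cells. The -66.8 kb peak was the most open of them, with 17.2, 16.2 and 12.9 CPM in luminal duct, 10.2, 16.4 and 7.57 in luminal TEB, 0.342 and 0.616 in basal duct and 2.56, 0.391 and 0.886 in basal TEB. The basal and luminal libraries did not overlap. In basal duct against luminal duct it was lower by a log2 fold change of -5.07 ± 0.24 (edgeR exact test, adjusted p = 2.2e-37), and 6 of the 8 peaks were lower and 0 higher. Over all peaks more than 500 bp from a TSS, 39.6% were called lower and 30.3% higher in that comparison. The promoter, which differed by 0.11 between the same groups, did not show this drop, and 0 of the 8 peaks had its sign.

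Htr5b, on the minus strand of chromosome 1, had 1 promoter peak (chr1:121528051-121528976, over the first exon and 5′ UTR). Its level was 11.5 and 9.24 CPM in basal duct, 16.4, 24.3 and 26.2 in basal TEB, 6.15, 5.78 and 6.45 in luminal duct, and 6.86, 11.5 and 6.59 in luminal TEB. Basal TEB was above every other library and basal duct above luminal duct, while luminal TEB replicate 2 reached the level of basal duct. The log2 fold change of basal TEB against basal duct was 1.10 ± 0.25 (2.14-fold).

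All 11 of the Htr5b peaks outside promoters had log2 fold changes above 0 in basal TEB against basal duct, with a median of 2.78. The median over all peaks more than 500 bp from a TSS was 0.15. As at Dmrta1 the shared sign is a description, and the part of low counts in it was not tested. The -23.3 kb peak had 0.342 and 0.616 CPM in basal duct, 3.58, 9 and 4.88 in basal TEB, and 0.645 to 1.48 over the 6 luminal libraries. Here the basal TEB libraries stood above all others, as they did at the +26.8 kb peak, with 3.58, 1.96 and 4.43 CPM against at most 1.10 elsewhere. The nearest TSS of the -23.3 kb peak belongs to Ddx18.

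The repeat peaks downstream of Htr5b behaved differently among libraries. The +44.8 kb peak had 0.456 and 0.77 CPM in basal duct, 11.2, 1.96 and 3.1 in basal TEB, 8.48, 1.87 and 3.44 in luminal duct and 5.76, 5.19 and 5.93 in luminal TEB. Basal TEB replicate 1, which also had the largest share of soft-masked counts, was the highest library, and the other 2 overlapped the luminal ones. At +43.7 kb the same replicate had 16.9 CPM against 0.783 and 2.66 in replicates 2 and 3. Both repeat peaks were lower in basal duct than in luminal duct (log2 fold changes -2.95 and -2.82, adjusted p = 6.8e-08 and 9.8e-07), as was the neighbouring +45.2 kb peak (-4.71, adjusted p = 5.0e-34), which did not reach that repeat criterion and had 15.3 ± 2.96 CPM in luminal duct and 15.8 ± 4.11 in luminal TEB. In all, 6 of the 11 (54.5%) were lower and 0 higher when basal duct was compared with luminal duct. These include the +44.8 and +43.7 kb repeat peaks, whose counts are uncertain, and the -21.1 kb peak (-1.70, adjusted p = 0.0112). The -21.1 kb call was lost under DESeq2 (adjusted p = 0.108), with loess offsets (adjusted p = 0.176) and without luminal duct replicate 3 (adjusted p = 0.167). Without basal duct replicate 1 its change was -1.03. The shares over all peaks more than 500 bp from a TSS were 39.6% lower and 30.3% higher. In 9 of 11 the sign was opposite to that of the promoter.

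Ccnd2, on the minus strand of chromosome 6, had 1 promoter peak (chr6:127150909-127151175, over the first exon and 5′ UTR). Its level was 8.66 and 5.55 CPM in basal duct, 12.3, 20.3 and 9.31 in basal TEB, 4.03, 1.87 and 1.29 in luminal duct, and 1.92, 0.82 and 1.98 in luminal TEB. The 3 basal TEB libraries lay above the 2 of basal duct, and all 5 above the luminal ones, whose groups overlapped. Basal TEB against basal duct gave 0.97 ± 0.44 (1.96-fold) and narrowly missed the threshold of 0.05 (adjusted p = 0.0578). The call was made by 6 of the 8 other tests or scalings run (adjusted p from 3.0e-04 to 0.0326), not by DESeq2 or with a replicate block. Over all promoter peaks, 0.604% were called higher and 34.9% lower in that comparison. The promoter was higher in basal than in luminal cells both in ducts (1.53 ± 0.50, adjusted p = 1.4e-05) and in TEBs (3.15 ± 0.44, 8.88-fold, adjusted p = 7.1e-11). The difference of the TEB-against-duct change between lineages was 1.58 (quasi-likelihood test, adjusted p = 0.0663).

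Of the 13 Ccnd2 peaks outside promoters, 1 was higher and 1 lower in basal TEB than in basal duct. That is 7.69% each, against 9.14% and 7.03% of all peaks over 500 bp from a TSS. The -1.4 kb peak lies 113 bases upstream of the start of a further Ccnd2 transcript that is outside the basic annotation. It was at 8.32 and 5.7 CPM in basal duct, 11.2, 14.1 and 17.7 in basal TEB, 0.848, 1.12 and 1.07 in luminal duct and 2.47, 1.64 and 1.65 in luminal TEB. No 2 groups overlapped, with basal TEB above basal duct and both above the luminal groups. It rose by 1.02 ± 0.31 (2.03-fold, adjusted p = 0.0328), a call lost without either basal duct library or basal TEB replicate 3 (adjusted p from 0.0874 to 0.553). Its change differed from that of the promoter by 0.10 (limma, adjusted p = 0.917). The +1.1 kb peak on the other side of the promoter, in the gene body and closer to the TSS, had a change of -0.71 ± 0.38 that did not pass the test (adjusted p = 0.462).

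The -49.3 kb peak went the other way. It was at 13.7 and 15.6 CPM in basal duct, 5.11, 10.6 and 5.76 in basal TEB and 0.988 to 2.2 over the luminal libraries. All 3 basal TEB libraries lay below both of basal duct and above the luminal ones. It fell by 1.0 ± 0.32 on the log2 scale (adjusted p = 0.034), and the gap to the promoter's change was -1.94 (adjusted p = 0.0135). This fall was not called by DESeq2 (adjusted p = 0.207), with TMM factors from TSS peaks (-0.37, adjusted p = 0.551), with total counts (-0.79, adjusted p = 0.12), with loess offsets (-0.56, adjusted p = 0.255), or without either basal duct library or basal TEB replicate 1 or 3 (adjusted p from 0.087 to 0.371). The -94.9 kb peak was the only one of the 13 lower in basal than luminal cells in both structures, with 0.684 and 0.616 CPM in basal duct against 2.15 to 3.82 in luminal duct.

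Meox1, on the minus strand of chromosome 11, had 1 promoter peak (chr11:101894214-101894590, over the first exon and 5′ UTR). It was at 5.13 and 5.55 CPM in basal duct, 4.6, 11 and 6.65 in basal TEB, 0.848, 0 and 0.86 in luminal duct and 1.37, 0 and 0.329 in luminal TEB. Basal TEB overlapped basal duct, and all 5 basal libraries were above the 6 luminal ones, which held 0 to 5 reads each. The change of basal TEB against basal duct, 0.50 ± 0.34, did not pass the test (adjusted p = 0.515). Basal against luminal differed by 3.18 ± 0.50 in ducts (adjusted p = 1.5e-10) and by 3.61 ± 0.67 in TEBs (adjusted p = 1.7e-07).

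Meox1 lay within a broad basal-open region. Of its 43 peaks outside promoters, 36 (83.7%) were higher and 2 (4.65%) lower when basal duct was compared with luminal duct. When basal TEB was compared with luminal TEB, 23 (53.5%) were higher and 0 lower. Over all peaks more than 500 bp from a TSS the shares were 30.3% and 39.6% in ducts and 17.4% and 21.5% in TEBs. Only 23 of the 43 have the Meox1 TSS as their nearest, and 19 of these were among the 36. In basal TEB against basal duct, however, 1 (2.33%) was higher and 5 (11.6%) were lower, against 9.14% and 7.03% of all such peaks. The intronic +12.8 kb peak was at 24.7 and 18.9 CPM in basal duct and 18.4, 23.9 and 17.7 in basal TEB, against 1.37 to 4.12 over luminal libraries. Its basal groups overlapped, with a log2 fold change of -0.13 ± 0.23.

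The 5 peaks that fell in basal TEB were at +15.3, +20.3, +44.9, +54.8 and +87.1 kb, all on the 3′ side of the TSS. Only 3 of these 5 have the Meox1 TSS as their nearest. The +44.9 kb peak was at 21.2 and 14.8 CPM in basal duct, 7.67, 5.48 and 3.99 in basal TEB, 1.7, 2.05 and 1.93 in luminal duct and 2.74, 2.46 and 1.98 in luminal TEB. Basal TEB lay between basal duct and the luminal groups without overlap. It fell by 1.67 ± 0.36 (adjusted p = 2.5e-04), and its gap to the promoter's change was -1.96 (adjusted p = 0.0256). The +20.3 kb peak, beyond the 3′ end of the gene, fell by 0.86 ± 0.27 (adjusted p = 0.0358) from 29.3 and 24.2 CPM to 14.8, 10.6 and 19.1. The gap to the promoter was called lower for 3 of the 43 peaks (+44.9, +54.8 and +87.1 kb) and higher for 0. With TMM factors from TSS peaks the calls at all 5 were lost (adjusted p from 0.0541 to 0.792), and the +44.9 kb change was -1.0. DESeq2 called only the +44.9 kb peak (adjusted p from 0.0575 to 0.159 at the other 4). Loess offsets lost +15.3, +20.3 and +87.1 kb (adjusted p = 0.0534, 0.461 and 0.294), total counts +20.3 and +87.1 kb (adjusted p = 0.153 and 0.0636), GC-bin offsets +54.8 kb (adjusted p = 0.0665) and the replicate block +20.3 kb (-0.65, adjusted p = 0.126). The +44.9 kb call was also lost without basal duct replicate 1 (adjusted p = 0.211), and the other 4 without either basal duct library (adjusted p from 0.128 to 0.615), the one at +20.3 kb without basal TEB replicate 2 (adjusted p = 0.0948) and the one at +87.1 kb without basal TEB replicate 3 (adjusted p = 0.0733). The only peak that rose, at -23.7 kb (3.64 ± 1.03, adjusted p = 0.00392), is 88.6% soft-masked, and its basal TEB values of 8.69, 0.783 and 2.22 CPM were led by replicate 1, without which the call was lost (adjusted p = 0.232), as it was without either basal duct library (adjusted p = 0.341 and 0.113) and with loess offsets (adjusted p = 0.0561).

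Sema3b, on the minus strand of chromosome 9, has 5 annotated TSSs, of which 1 had a peak (chr9:107605063-107605710, at an internal TSS). It was at 15.8 and 17.4 CPM in basal duct, 9.71, 25.0 and 17.3 in basal TEB, 7.85, 7.09 and 5.8 in luminal duct and 9.88, 7.92 and 7.9 in luminal TEB. The basal TEB libraries spread to either side of basal duct, and replicate 1 reached down to luminal TEB. Basal TEB against basal duct was 0.08 ± 0.39 (adjusted p = 0.99), with the sign reversed to -0.29 without basal TEB replicate 2. The promoter was higher in basal than in luminal cells in ducts (1.2 ± 0.14, adjusted p = 3.1e-07) and TEBs (1.04 ± 0.40, adjusted p = 0.00695).

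The window around Sema3b is gene-dense: 16 of its 48 peaks were promoters of other genes, and only 4 of the 31 peaks outside promoters have the Sema3b TSS as their nearest. The most open of them, at -7.3 kb, lies 2674 bases from the 5′-most Sema3b TSS, which itself had no peak. It was at 64.5 and 56.8 CPM in basal duct, 73.6, 96.7 and 72.7 in basal TEB, 36.7, 38.4 and 28.8 in luminal duct and 40.1, 42.6 and 31.9 in luminal TEB. Each basal TEB library was above both of basal duct, but the change of 0.42 ± 0.16 did not pass the test (adjusted p = 0.321). In basal TEB against luminal TEB it was higher by 1.09 ± 0.18 (adjusted p = 2.3e-05).

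In basal TEB against basal duct, 0 of the 31 Sema3b peaks were higher and 3 (9.68%) were lower. The shares over all peaks more than 500 bp from a TSS were 9.14% and 7.03%. The 3 lay at -96.3, -71.1 and +78.5 kb. All 3 are nearest to another gene (Sema3f, Gnat1 and Tmem115). The -71.1 kb peak was at 24.6 and 23.7 CPM in basal duct and 15.8, 11 and 12 in basal TEB, against 9.88 to 11.8 in luminal libraries. Basal TEB replicate 2 thus lay within the luminal range, and replicates 1 and 3 above it. The peak fell by 0.91 ± 0.16 from basal duct to basal TEB (adjusted p = 0.0238), a call lost under DESeq2, under 4 other scalings and with the replicate block (adjusted p = 0.0589). It was also lost without either basal duct library or basal TEB replicate 3 (adjusted p = 0.119 for the last). The calls at -96.3 kb (-1.06) and +78.5 kb (-0.94) were lost under DESeq2 (adjusted p = 0.131 and 0.221) and the same 4 scalings (adjusted p from 0.0632 to 0.707), without either basal duct library or basal TEB replicate 3, and at +78.5 kb without basal TEB replicate 1 as well (adjusted p from 0.0603 to 0.817). The -43.6 kb peak was the only one of the 158 called in luminal TEB against luminal duct. It had 2.74, 2.46 and 2.63 CPM in luminal TEB and 0.636, 0.187 and 0.215 in luminal duct, where it rested on 3, 1 and 1 reads. The groups did not overlap, and it was higher by 2.84 ± 0.25 (adjusted p = 0.015), a call lost when any of luminal duct replicates 2 and 3 or luminal TEB replicate 1 was left out.

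Nrg1 is a very long gene on the minus strand of chromosome 8, and each of its 7 TSSs had a peak, 4 promoter peaks in all. The strongest (chr8:32008419-32009871, over an exon and 5′ UTR) was at 53.1 and 45 CPM in basal duct, 34.3, 47.0 and 33.7 in basal TEB, 26.1, 17.5 and 18.9 in luminal duct and 12.9, 18.9 and 16.5 in luminal TEB. Basal duct had the highest mean, basal TEB overlapped it, and all luminal libraries lay below. Basal TEB against basal duct was -0.35 ± 0.19 (adjusted p = 0.428), a sign that turned with TMM factors from TSS peaks (0.30), loess offsets (0.16) and GC-bin offsets (0.37). Basal was above luminal by 1.18 ± 0.21 in ducts (adjusted p = 2.0e-11) and by 1.26 ± 0.22 in TEBs (adjusted p = 1.2e-05).

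The promoters of Nrg1 did not all show the same values. The one at 90.6 kb downstream (chr8:31918691-31918967) had 1.82 and 1.85 CPM in basal duct, 2.04, 9.78 and 5.32 in basal TEB, 1.27, 0.187 and 1.5 in luminal duct and 1.1, 2.19 and 0.659 in luminal TEB. Basal TEB replicates 2 and 3 were above all others, and replicate 1 lay above basal duct but within the range of luminal TEB. It rose by 1.66 ± 0.59 in basal TEB against basal duct (adjusted p = 0.0322), and was the only promoter of the 4 tested genes to do so. The call was lost under DESeq2 (adjusted p = 0.0844), with a replicate block (0.94, adjusted p = 0.323), without basal TEB replicate 2 (1.02, adjusted p = 0.316) and without either basal duct library (adjusted p = 0.39 and 0.331). The 5′-most pair, at -874.5 and -875.4 kb, were at 12.9 ± 0.604 and 10.5 ± 0.00532 CPM in basal duct and at 8.5 ± 1.36 and 7.69 ± 2.78 in basal TEB, with changes of -0.61 and -0.46 that did not pass the test (adjusted p = 0.247 and 0.485).

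Of the 52 Nrg1 peaks outside promoters, 7 (13.5%) were higher and 3 (5.77%) lower in basal TEB than in basal duct. The shares over all peaks more than 500 bp from a TSS were 9.14% and 7.03%. The +81.2 kb peak, in an intron 9703 bases from the nearest TSS, had 1.94 and 2.62 CPM in basal duct, 3.07, 9.39 and 10.6 in basal TEB, 0.212, 1.49 and 2.79 in luminal duct and 0, 0.273 and 0.659 in luminal TEB. The groups of basal cells did not overlap, with replicates 2 and 3 of basal TEB again the highest. It rose by 1.78 ± 0.55 (adjusted p = 0.00574), and its TEB-against-duct change differed between lineages by 4.04 (adjusted p = 0.00459), a value that rests on 0, 1 and 2 reads in luminal TEB. The rise was not called without either basal duct library (adjusted p = 0.388 and 0.142) or basal TEB replicate 3 (adjusted p = 0.0622). The -1.8 kb peak next to the strongest promoter was at 5.01 and 4.62 CPM in basal duct, 8.18, 14.1 and 9.75 in basal TEB and 0.424 to 0.988 over luminal libraries. It rose by 1.16 ± 0.23 (adjusted p = 0.0283), and unlike the promoter beside it: the gap between the changes was 1.41 (adjusted p = 0.04). This rise was not called by DESeq2 (adjusted p = 0.0563), with a replicate block (adjusted p = 0.147), or without either basal duct library (adjusted p = 0.406 and 0.425) or basal TEB replicate 2 (adjusted p = 0.127). The -302.7 kb peak rose by 1.28 ± 0.35 (adjusted p = 0.0362), a call lost under DESeq2, with a replicate block, and without either basal duct library or basal TEB replicate 3 (adjusted p from 0.0545 to 0.425).

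The other 4 Nrg1 peaks called higher, at -489.2, -623.2, -710.8 and -844.7 kb, were each 100% soft-masked. The -710.8 kb peak was at 0.57 and 0.924 CPM in basal duct, 11.2, 3.52 and 4.43 in basal TEB and 0.746 to 2.79 over luminal libraries, and rose by 3.05 ± 0.52 (adjusted p = 1.3e-04, and 0.169 without basal duct replicate 1). Basal TEB replicate 1, which had the largest share of soft-masked counts and was the highest at all 4 of these peaks, led the next library only slightly at -623.2 kb (2.56 against 2.22 CPM) and clearly at -489.2 and -844.7 kb (6.13 against 2.2 and 7.16 against 1.98 CPM). The calls at -489.2, -623.2 and -844.7 kb were lost without either basal duct library or basal TEB replicate 1 (adjusted p from 0.06 to 0.476), the first pair also with loess offsets (adjusted p = 0.12 and 0.113), and -623.2 kb without basal TEB replicate 3 (adjusted p = 0.0643). The part of repeats in the rise was not tested beyond leaving such peaks out: of the 9 called higher over the 4 genes, 4 were not soft-masked, and all 12 called lower were not.

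The 3 Nrg1 peaks that fell were at -255.7, -237.5 and -537.5 kb. The -255.7 kb peak was at 21.5 and 21.1 CPM in basal duct, 6.13, 10.2 and 5.32 in basal TEB and 0.848 to 3.29 in luminal libraries. Basal TEB lay between basal duct and the luminal groups with no overlap, and it fell by 1.54 ± 0.27 (adjusted p = 2.6e-04, and 0.0956 without basal duct replicate 1). The -237.5 kb peak held 0, 3 and 1 reads in basal TEB against 24 and 28 in basal duct. Its call (-2.52, adjusted p = 0.0134) was lost under DESeq2 (adjusted p = 0.16), with TMM factors from TSS peaks (adjusted p = 0.085), and without either basal duct library or basal TEB replicate 3 (adjusted p from 0.0581 to 0.273). The -537.5 kb call (-2.10, adjusted p = 0.035) was lost under DESeq2, with TMM factors from TSS peaks, total counts, GC-bin offsets and the replicate block, and without either basal duct library or basal TEB replicate 1 or 2 (adjusted p from 0.0657 to 0.327). The intronic -209.8 kb peak, with the 2 AP-1 matches, was at 38.4 and 35.7 CPM in basal duct and 24.0, 56.0 and 45.2 in basal TEB, against 1.31 to 3.29 over the 6 luminal libraries. Basal TEB spread to either side of basal duct (0.18 ± 0.36), and basal was above luminal by 4.31 ± 0.18 in ducts (19.9-fold, adjusted p = 8.9e-63). Some introns were luminal-open: the -190.7 kb peak had 13.3 to 14.6 CPM in luminal duct against 5.13 and 6.32 in basal duct and 1.53, 4.7 and 3.99 in basal TEB.

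**Figure D2:**
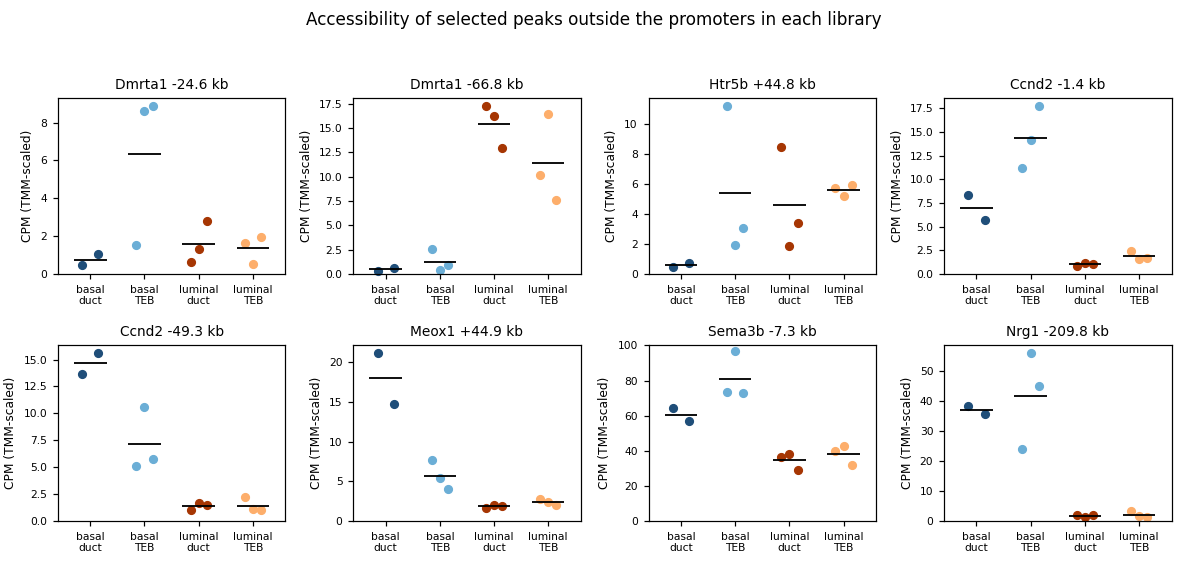
TMM-scaled CPM (vertical axis, linear from 0) of 8 peaks outside promoters in each library, named by gene and distance from its reference TSS (negative is upstream). Points are libraries and bars are group means. Dmrta1 -24.6 kb is highest in 2 basal TEB libraries and Dmrta1 -66.8 kb in luminal cells, Ccnd2 -1.4 kb and -49.3 kb differ in opposite directions between basal TEB and basal duct, and Nrg1 -209.8 kb is open in both basal groups.

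Over the 4 tested genes, 9 of 139 peaks outside promoters (6.47%) were called higher and 12 (8.63%) lower in basal TEB than in basal duct, against 9.14% and 7.03% of all peaks over 500 bp from a TSS. The median log2 fold change was -0.10 for the members and 0.15 for all such peaks. These shares are near the background in both directions. At an unadjusted p below 0.05, 14 were higher and 20 lower. The split depended on the scaling: with TMM factors from TSS peaks, which shift the median of all peaks from 0.02 to 0.67, 20 were higher and 1 lower. With loess offsets 13 were higher and 6 lower, and with total counts 12 and 5. The calls over all 153358 peaks moved as well, from 12605 higher and 14924 lower to 21928 and 2393 with the TSS-peak factors. They were 12078 and 9934 with loess offsets and 14633 and 9021 with total counts. The calls rested on both basal duct libraries: without replicate 1 there were 0 higher and 0 lower, and without replicate 3 there were 1 and 2, the remaining library being assumed to vary like those of basal TEB. Without basal TEB replicate 3 there were 6 higher and 6 lower.

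**Figure D3:**
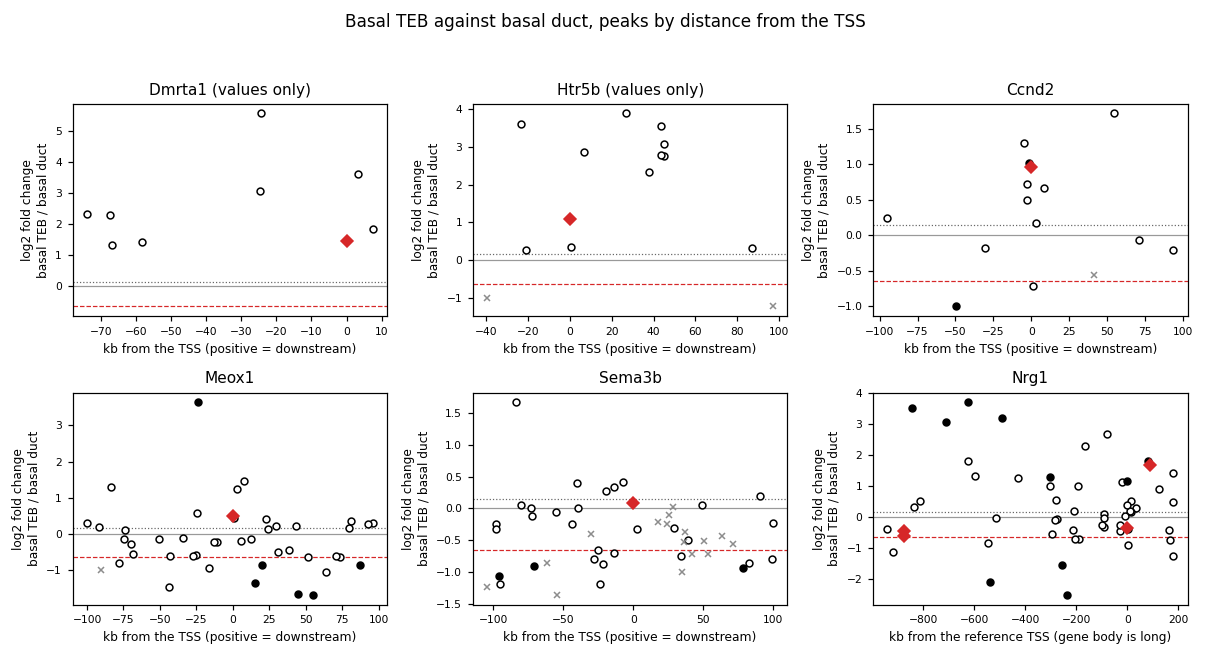
Log2 fold change of basal TEB against basal duct (vertical axis) for every member peak by distance in kb from the reference TSS (horizontal axis, positive is downstream). Red diamonds are the gene's own promoters, circles are peaks outside promoters (filled when called at an adjusted p below 0.05), grey crosses are promoters of other genes, and lines mark the median of all promoters (red dashes, -0.65) and of all other peaks (dotted, 0.15). All peaks of Dmrta1 and Htr5b outside promoters, shown as values only, lie above 0, and those of the other 4 genes lie to both sides.

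In that comparison none of the strongest promoters of the 4 tested genes was called by the exact test. Their changes were 0.97 at Ccnd2, 0.50 at Meox1, 0.08 at Sema3b and -0.35 at Nrg1, and at Sema3b and Nrg1 the sign turned in some settings. Peaks outside promoters had the promoter's sign in 8 of 13 (Ccnd2), 17 of 43 (Meox1), 9 of 31 (Sema3b) and 23 of 52 (Nrg1). Without a called change at the promoter, these counts do not show whether the peaks moved with it. Over the 89606 pairs of a distal peak and its nearest promoter in the series, signs matched in 49.6%. Where the promoter was not called they matched in 49.3%. Where the promoter itself was called higher, which held for 391 pairs, signs matched in 77.5%, and 25.3% of the distal peaks were called higher and 2.56% lower. Relative to its promoter, a peak moved further up in 4 of 139 cases and further down in 5, against 19.1% and 1.69% of all pairs. The 4 were all at Nrg1, and the 5 were 3 at Meox1, 1 at Ccnd2 and 1 at Nrg1. The median gap was -0.86 at Ccnd2, -0.60 at Meox1, -0.42 at Sema3b and 0.39 at Nrg1, beside 0.65 over all pairs, which includes the lower median of promoters.

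In luminal TEB against luminal duct, 1 of the 158 peaks outside promoters (0.633%) was called higher and 0 lower, against 0.335% and 0.357% of all such peaks, and 8 and 3 had an unadjusted p below 0.05. None of the 7 tested promoters was called in either direction (background 0.102% higher and 1.44% lower). Of these 7, 0 had an unadjusted p below 0.05 in the exact test, with changes from -0.61 at Ccnd2 to 0.47 at the Nrg1 promoter at 90.6 kb. DESeq2 called 0 peaks in place of the 1. Gaps to the promoter were called at 0 of 139 peaks (0.00% higher and 0.00% lower over all pairs by limma), of which 8 were higher and 0 lower at an unadjusted p below 0.05. The median change was 0.57 over the 43 peaks at Meox1 and -0.32 over the 8 at Dmrta1, beside 0.04 over all such peaks. The interaction test, which asks whether the TEB-against-duct change differed between lineages, could be run on 117 of the 139 peaks and called 2 (1.71%) higher and 8 (6.84%) lower for basal cells (background 7.71% and 6.36%).

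**Figure D4:**
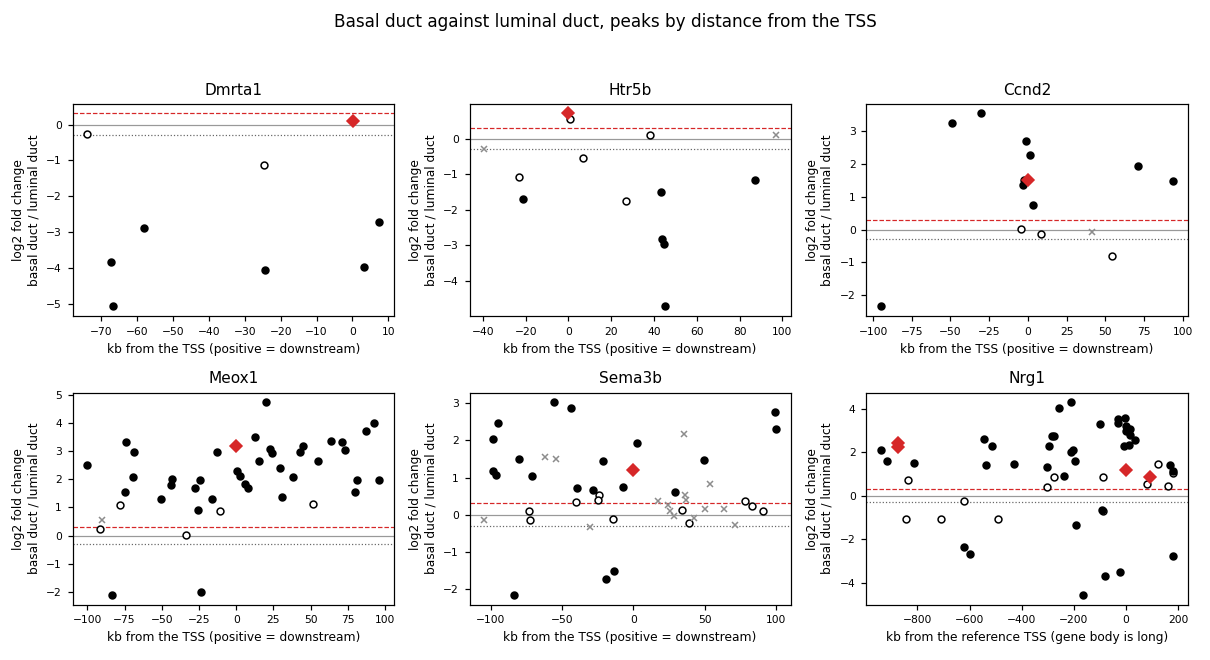
Log2 fold change of basal duct against luminal duct (vertical axis) for every member peak by distance in kb from the reference TSS (horizontal axis, positive is downstream). Symbols are as in the plot of basal TEB against basal duct, with the median of all promoters at 0.31 (red dashes) and of all other peaks at -0.29 (dotted). Most Meox1 peaks lie above 0 with their promoter, those of Dmrta1 lie below 0 while the promoter is near it, and Nrg1 has called peaks on both sides.

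In basal duct against luminal duct, 93 of 158 peaks (58.9%) were higher and 26 (16.5%) lower, against 30.3% and 39.6% of all such peaks, and the medians were 1.36 for the members and -0.29 for all. By gene, 9 of 13 were higher at Ccnd2, 36 of 43 at Meox1, 17 of 31 at Sema3b and 31 of 52 at Nrg1, and 0 of 19 at Dmrta1 and Htr5b. The strongest promoter of each of the 4 tested genes was higher in basal duct (43.7% of all promoters were called higher and 11.3% lower). Basal TEB against luminal TEB gave 61 higher and 6 lower of 139 (43.9% and 4.32%, against 17.4% and 21.5%), and again a higher strongest promoter at all 4 genes (9.72% of all promoters higher, 15.1% lower). These 2 comparisons share no library. By gene, 8 of 13 (Ccnd2), 23 of 43 (Meox1), 5 of 31 (Sema3b) and 25 of 52 (Nrg1) were higher in basal TEB than in luminal TEB. The share at Sema3b (16.1%) was near the 17.4% of all such peaks. The 4 genes were picked among basal cells, and the part of that choice in the lineage shares was not tested.

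Between lineages, most peaks outside promoters at the 4 tested genes had the sign of their promoter. In basal TEB against luminal TEB it matched in 12 of 13 (Ccnd2), 38 of 43 (Meox1), 18 of 31 (Sema3b) and 43 of 52 (Nrg1). Over all pairs in the series it matched in 56.9% there, so that Sema3b was near the background. In ducts the peaks of Dmrta1 (0 of 8) and Htr5b (2 of 11) mostly lacked the promoter's sign, but the Dmrta1 promoter itself changed by only 0.11 there. In basal duct against luminal duct the sign matched in 10 of 13 (Ccnd2), 41 of 43 (Meox1), 25 of 31 (Sema3b) and 39 of 52 (Nrg1). Signs matched in 55.4% of all pairs in the series and in 56.5% of those whose promoter was called higher. Over all pairs whose promoter was called higher, 39.9% of distal peaks were called higher and 31% lower. Relative to the promoter, 14 of 139 peaks moved further up and 27 further down there (background 13.1% and 35.2%), and in basal TEB against luminal TEB 8 and 59 (background 18.1% and 23.5%). Of those 59, 29 were at Meox1, 8 at Ccnd2, 12 at Sema3b and 10 at Nrg1. All gaps at a gene subtract the same promoter peak, so that they are not independent of each other. In the luminal TEB libraries that promoter held only 5, 0 and 1 reads at Meox1 and 7, 3 and 6 at Ccnd2. At Meox1 the promoter stood 3.61 above its luminal TEB level while the median over its 43 other peaks was 1.41, and the median gap was -1.99. At Nrg1 the median gap was -0.05, with 7 peaks called further up and 10 further down.

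**Figure D5:**
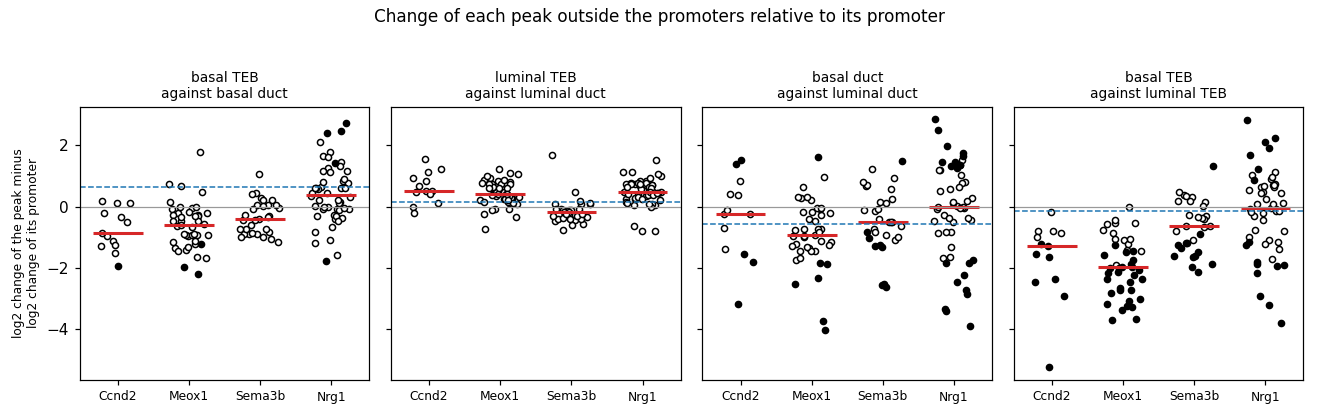
Change of each peak outside promoters minus the change of its gene's strongest promoter (vertical axis, log2 scale) in the 4 comparisons, for the 4 tested genes. Each circle is a peak (filled when the gap was called at an adjusted p below 0.05), red bars are medians per gene and the blue dashed line is the median over all pairs in the series. Most called gaps at Meox1 and Ccnd2 in basal TEB against luminal TEB lie below 0, and in luminal TEB against luminal duct none is called.

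Per kb of peak, the promoters ranked differently from their raw CPM. In basal TEB, Ccnd2 had 52.3 CPM per kb, Sema3b 26.8, Nrg1 26.4, Htr5b 24.0, Meox1 19.6 and Dmrta1 14.6. In luminal TEB the order was Sema3b (13.2), Nrg1 (11.1), Htr5b (8.97), Ccnd2 (5.89), Dmrta1 (4.67) and Meox1 (1.5). Neighbours in these orders were not tested against each other.

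The promoters most like each member over the 11 libraries, by Pearson correlation of log2 CPM among 13671 promoter peaks with a mean of at least 1 CPM, are given as a description. Groups set most of this likeness, and libraries share their depth. Htr5b (0.93) was among the 3 nearest to Dmrta1, with Ces2e (0.93) and U90926 (0.91), and Dmrta1 and Ces2e (0.92) were among those nearest to Htr5b, with Klrb1a (0.91). The promoter of Klrb1a had 15.4 CPM in basal TEB, 5.71 in basal duct and 1.24 and 1.52 in the luminal groups. Ccnd2 was nearest to the shared promoter of Ccdc71 and Klhdc8b, Gpr165 and Duxbl1 (each 0.96), Meox1 to Asprv1, Serpina9 and Ntm (each 0.98), Sema3b to Rad54l (0.97), Birc5 and Rab42, and Nrg1 to Lrrc4c (0.99), Dennd4a and Hs3st3b1.

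Of 64 promoters of other genes in the 6 pathway lists, 0 were called higher and 16 lower in basal TEB against basal duct by edgeR's exact test, beside 0.604% and 34.9% of all promoters, and 2 and 24 had an unadjusted p below 0.05. DESeq2 called 0 and 8. The split turned with the scaling: TMM factors from TSS peaks gave 7 higher and 1 lower, GC-bin offsets 5 and 3, loess offsets 4 and 4 and total counts 2 and 8, and without basal duct replicate 1 there were 0 and 0. The median over all peaks within 500 bp of a TSS moved with the scaling too. It went from -0.64 to 0.02 with the TSS-peak factors, -0.17 with GC-bin offsets, -0.20 with loess offsets and -0.41 with total counts. The falls that follow are therefore given relative to TMM over all peaks. Of 13 other class 3 semaphorins, neuropilins and plexins with a peak, 4 fell (median -0.72). Plxna1, a semaphorin co-receptor, went from 41.7 ± 6.65 to 14.7 ± 3.48 CPM (-1.5 ± 0.26, adjusted p = 3.6e-05), and Sema3f, whose promoter lies at the edge of the Sema3b window, from 41.7 ± 5.62 to 17.8 ± 3.88 (-1.24 ± 0.23, adjusted p = 6.7e-04). Of 15 other neuregulins, EGF-like ligands and ErbB receptors, 5 fell (median -0.65), among them the ligand gene Ereg (-1.34 ± 0.28, adjusted p = 4.0e-04) and the receptor gene Egfr (-0.88 ± 0.15, adjusted p = 0.0122). Of 17 other D-type cyclins, their kinases, inhibitors and targets, 5 fell (median -0.45), among them the kinase gene Cdk6 (-1.15 ± 0.19, adjusted p = 0.00147) and the inhibitor gene Cdkn2c (-1.0 ± 0.26, adjusted p = 0.00574).

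Of 10 other serotonin receptors, transporters and synthesis enzymes, 2 fell (median 0.45): the receptor gene Htr6 (-1.21 ± 0.34, adjusted p = 0.00492) and the transporter gene Slc6a4 (-1.31 ± 0.61, adjusted p = 0.0112). The change of largest size in that list was that of the receptor gene Htr3a, named after its values were seen, which had 0.995 ± 0.118 CPM in basal duct and 3.57 ± 0.495 in basal TEB (1.82 ± 0.13, adjusted p = 0.051). Among 4 other Dmrt genes (median -0.22) and 5 Meox and somite factors (median -0.07), 0 were called. In luminal TEB against luminal duct 0 were called in any list by the exact test, 2 were higher and 7 lower at an unadjusted p below 0.05, and DESeq2 called 0 higher and 1 lower. The counts in basal cells stand beside a median of -0.65 over all promoters.

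At the outer limit of the window, the member farthest from a TSS of its gene was the Sema3f promoter, 99.98 kb from a Sema3b TSS. The closest peak left out, 101.70 kb from the Meox1 TSS, had 0.134 ± 0.0284, 2.12 ± 1.38, 2.52 ± 1.48 and 2.52 ± 0.561 CPM in basal duct, basal TEB, luminal duct and luminal TEB.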

How the data were processed

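ATAC-seq was measured in 11 libraries of sorted basal and luminal cells from TEBs and ducts. The deposited table holds counts of reads per peak, which the authors made by aligning reads to mm10 (Bowtie2 2.3.4.3 is named in the submitters' processing notes), calling peaks with MACS2 (FDR 0.1) on pooled replicates of each population, merging them, removing blacklisted regions and counting in SeqMonk. Peaks called on pooled replicates carry no test between samples of their own. No column of another series was present (0).

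From these counts, each pair of groups was compared by the exact test of edgeR 4.0.16 (R 4.3.3) with TMM factors and dispersions estimated in the pair, and p-values were adjusted by Benjamini-Hochberg over all peaks with a count. A peak was called at an adjusted p below 0.05. The difference of the TEB-against-duct change between lineages was tested by edgeR's quasi-likelihood test over all 11 libraries. The change of a peak minus that of its gene's strongest promoter was tested with limma 3.58.1 on per-library differences of log2 CPM (prior count 2), over 89696 pairs. CPM, fold changes and SE between samples were computed here. The genes of the GENCODE vM21 basic protein-coding annotation gave the TSSs, and a promoter peak lies within 500 bp of one. Distances in kb run from the middle of a peak to the reference TSS, negative upstream.

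The members, gene lists and tests were chosen with earlier results of these data known. For each gene the text names every own promoter, the 3 other peaks with the highest mean log2 CPM and up to 2 per direction in each pair with the smallest p (at Dmrta1 and Htr5b the largest fold change). Other peaks are named because a call or a short count rests on them, after their values were seen. Alternatives were other tests (DESeq2 1.42.0, quasi-likelihood), filters, scalings, windows, promoter definitions, a replicate block and leaving out each library. Tests were also run on simulated counts in which few peaks changed and promoters had no shift as a class. That check therefore does not cover the promoter shift seen between basal TEB and basal duct. Per the series description the tissue came from 3 independent mouse pools, and samples of different groups may share a pool.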

Additional observations from a re-analysis of the deposited data

Results flagged for a closer look

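At 10 peaks outside promoters the change of TEB against duct differed between basal and luminal cells by the quasi-likelihood test of edgeR (adjusted p below 0.05), of 117 tested at Ccnd2, Meox1, Sema3b and Nrg1. Differences are given as basal minus luminal on the log2 scale.

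At Meox1, 4 peaks had a lower change in basal cells. Only 1 of them has the Meox1 TSS as its nearest. The difference was -2.02 at +44.9 kb (adjusted p = 0.011), -2.55 at +54.8 kb (adjusted p = 0.0129), -2.49 at +63.9 kb (adjusted p = 0.0285) and -2.09 at +70.8 kb (adjusted p = 0.0285). At +70.8 kb, which is named because this test passed, basal TEB against basal duct was -0.61 and luminal TEB against luminal duct 1.48, and neither was called (adjusted p = 0.342 and 0.282). At +63.9 kb, named for the same reason, these values were -1.06 and 1.45. The +44.9 kb call was lost with TMM factors from TSS peaks (-1.53, adjusted p = 0.0501) and without basal duct replicate 1 (-1.72, adjusted p = 0.0955), and the +54.8 kb call under DESeq2 (adjusted p = 0.0566) and without basal duct replicate 1 (adjusted p = 0.0684). Those at +63.9 and +70.8 kb were lost under DESeq2 (adjusted p = 0.112 and 0.0934), with TMM factors from TSS peaks (adjusted p = 0.0916 and 0.0966) and without either basal duct library, luminal duct replicate 1 or 3 or luminal TEB replicate 3 (adjusted p from 0.0578 to 0.287). Without luminal TEB replicate 3 the +63.9 kb value was -1.55. The +63.9 kb call was also lost with GC-bin offsets (adjusted p = 0.0531) and the replicate block (adjusted p = 0.0619), and the +70.8 kb call without luminal TEB replicate 1 (adjusted p = 0.0608).

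At Sema3b, neither peak called has that gene's TSS as its nearest. The difference was -1.30 at -21.5 kb (adjusted p = 0.0294), with -0.87 in basal and 0.43 in luminal cells. That peak is also named because the test passed. This call was lost under DESeq2, with 3 other scalings and the replicate block, and without any of 5 libraries, basal duct, basal TEB and luminal TEB replicate 1 and luminal duct replicates 1 and 2 (adjusted p from 0.051 to 0.178). At -43.6 kb it was -3.07 (adjusted p = 0.024), and the luminal duct libraries held 3, 1 and 1 reads there. It was lost under DESeq2 (adjusted p = 0.0757), with TMM factors from TSS peaks (adjusted p = 0.0645) and without basal duct replicate 3 or luminal duct replicate 2 or 3 (adjusted p from 0.0652 to 0.113).

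At Nrg1, the difference was 4.04 at +81.2 kb (adjusted p = 0.00459) and 3.01 at -710.8 kb (adjusted p = 0.0152), the latter in a peak that is 100% soft-masked. The +81.2 kb call was kept under every alternative run, and the -710.8 kb call was lost without basal duct replicate 1, basal TEB replicate 1 or luminal duct replicate 3 (adjusted p from 0.0713 to 0.122). It was -3.15 at -237.5 kb (adjusted p = 0.016) and -2.18 at -255.7 kb (adjusted p = 0.0127). The first was lost under DESeq2 (adjusted p = 0.0721) and without basal duct replicate 3 or luminal TEB replicate 2 (adjusted p = 0.0748 and 0.114), and the second without basal duct replicate 1 (adjusted p = 0.0529) or luminal TEB replicate 1 (-1.50, adjusted p = 0.191).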

How the results depend on the processing

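Counts are of member peaks outside promoters, higher and lower, and each cause was not tested unless the setting itself uses fewer peaks or samples. In basal TEB against basal duct (9 and 12 of 139), TMM factors from TSS peaks gave 20 and 1, DESeq2 2 lower, total counts 5 lower, loess offsets 6 lower and a 50 kb window, with fewer peaks, 7 lower. The 89 peaks nearest to the member's TSS held 9 higher and 7 lower (10.1% and 7.87%, against 6.47% and 8.63% of the 139). Without soft-masked peaks, an alternative chosen after seeing the data, 4 of 131 were higher (3.05%) and 12 lower (9.16%). Calls over all peaks moved with the scaling as well. In luminal TEB against luminal duct, DESeq2 and the nearest-TSS set gave 0 in place of 1 higher. In basal duct against luminal duct the nearest-TSS set gave 59 of 105 higher (56.2%), close to the 93 of 158 (58.9%) in all. In basal TEB against luminal TEB GC-bin offsets gave 3 lower (6). In the interaction (2 and 8) TMM factors from TSS peaks gave 5 and 3 and DESeq2 2 lower. Gaps to the promoter in basal TEB against basal duct (4 and 5) were 2 and 2 with a prior count of 0.5. Leaving out each library in turn gave 0 to 9 higher and 0 to 15 lower in basal TEB against basal duct, 0 to 1 and 0 to 0 in luminal TEB against luminal duct, 85 to 95 and 16 to 25 in basal duct against luminal duct, 48 to 64 and 3 to 6 in basal TEB against luminal TEB, and 1 to 4 and 2 to 12 in the interaction. For gaps to the promoter it gave 0 to 7 and 0 to 14, 0 to 0 and 0 to 0, 4 to 16 and 16 to 31, and 4 to 9 and 39 to 67 in the same order of the 4 pairs. Signs turned in basal TEB against basal duct at the strongest Nrg1 promoter with TMM factors from TSS peaks (0.30), loess (0.16) and GC-bin offsets (0.37), at its -874.5 kb promoter (0.05 with TSS peaks and 0.11 with GC bins) and at its -875.4 kb promoter (0.21 and 0.06). At the Sema3b promoter the sign turned with the replicate block (-0.32) and without basal TEB replicate 2 (-0.29, in a range from -0.29 to 0.36 when each library was left out). In luminal TEB against luminal duct it turned at the Meox1 promoter with loess offsets (-0.42), the replicate block (-0.02), without luminal duct replicate 2 (-0.54) and without luminal TEB replicate 1 (-1.68, in a range from -1.68 to 0.67), at the Nrg1 promoter at 90.6 kb without luminal duct or luminal TEB replicate 2 (-0.04 and -0.10, in a range up to 0.92), and at the -874.5 kb one without luminal TEB replicate 2 or 3 (0.04 and 0.16, in a range from -1.27). At Nrg1 -90.8 kb GC-bin offsets turned both lineage comparisons (0.83 in ducts, 0.01 in TEBs). Of 1704 alternatives over 127 results of single peaks, 1443 kept direction and call, 233 lost the call, 9 gained it and 19 turned. Promoters of other pathway genes, for which the alternatives were chosen after seeing the data, gave 0 higher and 16 lower in basal TEB against basal duct, and 1 higher by quasi-likelihood, 8 lower by DESeq2, 7 and 1 under the TSS-peak factors, 2 and 8 with total counts, 4 and 4 with loess and 5 and 3 with GC-bin offsets (0 to 0 and 0 to 21 leaving out each library). In luminal TEB against luminal duct (0 and 0) TSS peaks gave 1 higher, and DESeq2 and the replicate block 1 lower each (0 to 0 and 0 to 1 leaving out each library). Libraries of the same replicate number had correlations of deviations from -0.001 to 0.079, and the samples were not treated as pairs. In luminal TEB against luminal duct the same-number values were 0.038, 0.079 and 0.058, and those of different numbers ran from -0.057 to 0. Calls over all peaks there went from 439 higher and 631 lower by quasi-likelihood to 1049 and 1702 with the replicate block. Whether the numbers stand for shared pools was not tested. With that block 8 were higher and 13 lower in basal TEB against basal duct. Basal TEB libraries are the shallowest, which limits the call of small changes there.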
